A study of Homo sapiens with 24 samples.

Results

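The human collagen genes were followed across 24 RNA-seq libraries of a glioblastoma cell line with and without the histone chaperone subunits DAXX and ATRX. Members were the protein-coding genes whose GENCODE symbol is COL, a number, A and a number, which gave 44 of the 57736 genes in the count table. The cells were U87-T, the glioblastoma line U87 carrying a TERT transgene, which every group shared. DAXX_KO and ATRX_KO are CRISPR knockouts of U87-T, each a single clone with features of alternative lengthening of telomeres, so the effect of a knockout and a property of its clone cannot be told apart. The DAXX series and the ATRX series each held WT cells and the knockout, in control cells (untreated per the titles) and with etoposide, a topoisomerase II inhibitor that breaks DNA. Each of the 8 groups had 3 libraries, and each series had its own WT libraries.

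Collagens are the triple-helical proteins of the extracellular matrix. 3 chains wind together in the endoplasmic reticulum, after prolines and lysines have been hydroxylated, and the trimers are exported, trimmed and crosslinked. Fibrillar collagens build the banded fibrils of connective tissue, type IV collagen builds the network of basement membranes, type VI forms beaded filaments, the fibril-associated collagens coat fibrils, and a few collagens span the plasma membrane. In the healthy brain, collagen is mostly found in vessel walls and meninges, and glioma lines grown in culture often make fibrillar and type VI chains.

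The libraries were made with a QuantSeq 3′ mRNA kit, which reads near the 3′ end of polyadenylated transcripts, so a transcript gives about 1 fragment whatever its length. Levels are given in CPM, a library's counts brought to a fixed total with edgeR's TMM scaling, with 3 values per group for replicates 1 to 3. Library totals ran from 6928950 to 13298557 counts, and a count of 3, the most that a count of 0 allows, equalled 0.217 to 0.405 CPM (a limit from counting alone, as the kit's reads bear no molecular tags). DAXX mRNA averaged 33.9 ± 1.24 CPM in the control WT cells of its series and 5.83 ± 1.06 CPM in DAXX_KO (SD, n = 3), and ATRX mRNA averaged 192 ± 4.63 CPM in WT and 80.6 ± 6.08 CPM in ATRX_KO. The libraries titled DAXX_KO carry a genotype tag that reads ATRX, and the titles were taken as right. Of the glioblastoma and astroglial markers, VIM, CD44 and NES were present in all groups (VIM from 1616 to 5698 CPM as group means), SOX2, OLIG2 and CHI3L1 were low, GFAP averaged at most 0.249 CPM and S100B was at 0 in all libraries. Defining markers of endothelial cells (CDH5 and VWF, with PECAM1 not analysed here), leukocytes (PTPRC) and epithelium (EPCAM, CDH1) averaged under 2 CPM in every group, whereas CD68 of the leukocyte list averaged 20.4 to 38.6 CPM. Among fibroblast markers THY1 averaged 151 CPM in DAXX-series WT and 175 CPM in ATRX-series WT, against 4.55 CPM in DAXX_KO and 0.193 CPM in ATRX_KO in control cells, while FAP averaged 14.6 CPM and 13.7 CPM in WT against 25.5 CPM and 29.1 CPM, PDGFRB averaged 10.3 CPM and 9.67 CPM in WT against 28.7 CPM and 6.09 CPM, PDGFRA averaged at most 2.66 CPM in any group and DCN stayed under 0.31 CPM in every group. The part of these fibroblast markers in the collagen values was not tested. In bulk RNA, fewer expressing cells and less RNA per cell cannot be told apart.

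In control cells the collagen genes as a whole took a larger share of the counts in DAXX_KO than in the WT of its series. In ATRX_KO they took a smaller share than in the WT of its series. These shares are of raw library totals, without the TMM factors used for CPM. Those factors were 0.9386 to 0.9705 in control WT of the DAXX series and 1.073 to 1.096 in control DAXX_KO. Dividing by them makes the excess of DAXX_KO in control cells smaller, and the scaled share was not tested. In the DAXX series the share was 0.153% ± 0.00142 for WT (SD, n = 3) against 0.181% ± 0.00683 for DAXX_KO. In the ATRX series it was 0.213% ± 0.0112 for WT against 0.106% ± 0.00189 for ATRX_KO. With etoposide the same pairs were 0.0963% ± 0.00156 against 0.144% ± 0.00646, and 0.141% ± 0.00311 against 0.0821% ± 0.00611. In each of the 4 pairs the 3 libraries of the knockout lay apart from the 3 of its WT. Set against the WT of the other series, DAXX_KO in control cells (0.174% to 0.187%) lay below WT (0.202% to 0.224%). With etoposide DAXX_KO (0.137% to 0.148%) overlapped that WT (0.137% to 0.143%). ATRX_KO lay below the WT of both series in both treatments. An exact permutation test of 3 against 3 libraries cannot go below 0.10, so none is given for the share. Chains of type I and type VI collagen held most of these counts.

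More collagen mRNAs rose than fell in DAXX_KO, and more fell than rose in ATRX_KO. Each series was fitted in edgeR's quasi-likelihood model and genes were called at a Benjamini-Hochberg FDR of 5% over all genes tested. In control cells of the DAXX series, 13 of the 23 members tested were higher in DAXX_KO, 5 were lower and 5 were not called, where 53.4% of all genes tested were called (26.7% higher and 26.6% lower). The median member changed by 0.56 on the log2 scale and the median of all genes by 0.016. In control cells of the ATRX series, 2 of the 24 members tested were higher in ATRX_KO, 14 were lower and 8 were not called, where 41.8% of all genes were called (20.8% higher and 21% lower). The median member changed by −0.70 and the median of all genes by 0.019. In DAXX_KO 4 of the 13 (COL9A2, COL9A3, COL14A1 and COL21A1) had at most 3 counts in every control WT library. Without members with such a group in the comparison, a count added after the values had been seen, 9 of 19 were higher and 5 lower in DAXX_KO (median 0.44), and 2 of 20 were higher and 13 lower in ATRX_KO (median −0.93). With the fold of such members set to its bound at 3 counts per library, the medians were 0.49 in DAXX_KO and −0.93 in ATRX_KO. With etoposide the counts over all members tested were the same, 13 higher and 5 lower in DAXX_KO (all genes called 53%, median member 0.72) and 2 higher and 14 lower in ATRX_KO (45.9%, median member −1.08). These include COL21A1 in DAXX_KO and COL4A3 in ATRX_KO, both called higher with at most 3 counts in every etoposide WT library. Without them 12 of 22 were higher and 5 lower in DAXX_KO (median 0.72). In ATRX_KO 1 of 23 was higher and 14 were lower (median −1.10).

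**Figure D1:**
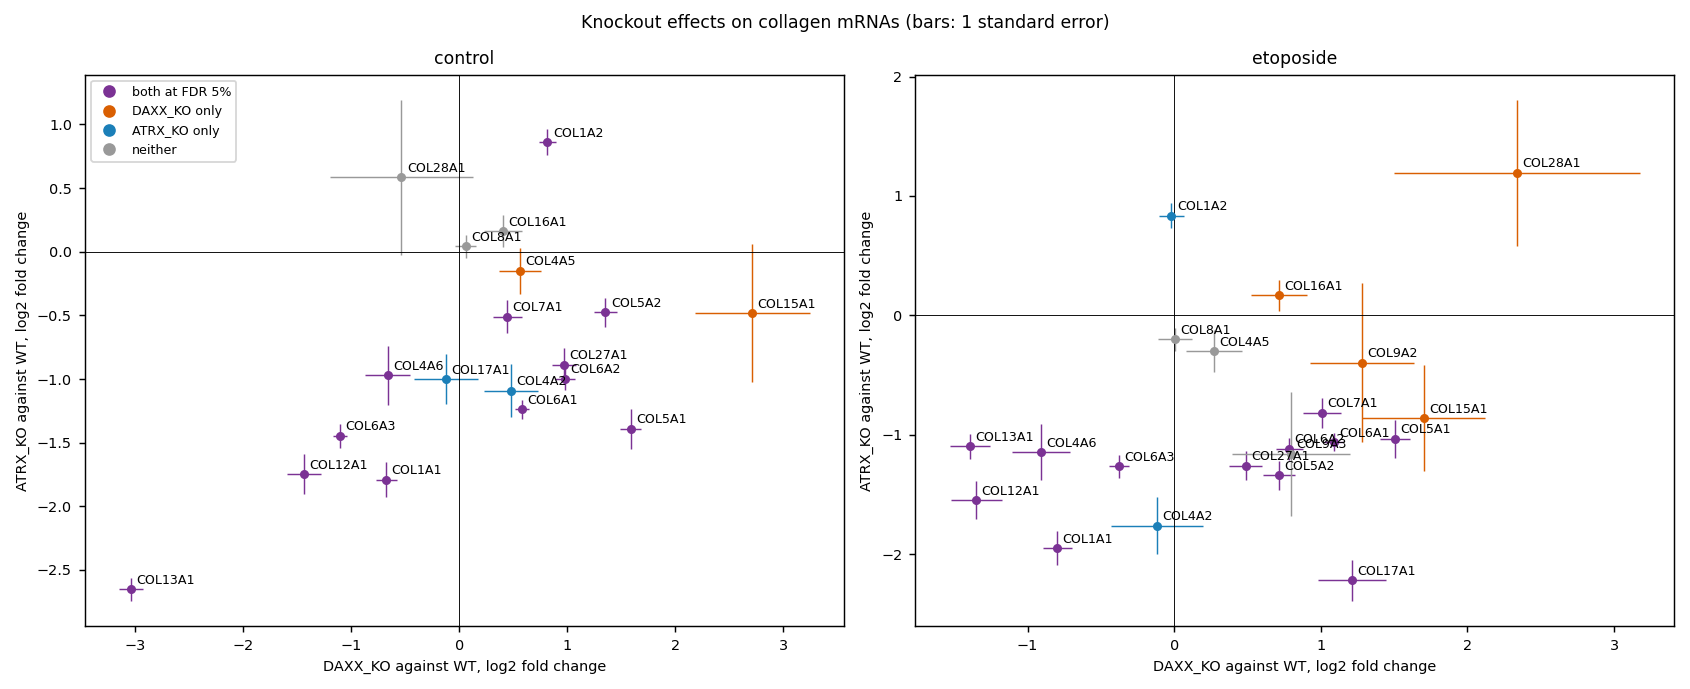
Log2 fold change of collagen mRNAs tested in both series in DAXX_KO against WT (horizontal axis) and in ATRX_KO against WT (vertical axis). Control cells are on the left and etoposide on the right. Bars are 1 standard error from the model, and colours mark calls at an FDR of 5%. Members with at most 3 counts in every library of a compared group are left out, which are COL9A2 and COL9A3 in control cells. COL13A1, COL12A1, COL1A1, COL6A3 and COL4A6 lie to the lower left in both panels, COL1A2 is the only member higher in both knockouts in control cells, and COL5A1, COL5A2, COL6A1, COL6A2, COL7A1 and COL27A1 lie to the lower right.

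Of the 21 members tested in both series, 1 was higher in both knockouts in control cells (COL1A2) and 5 were lower in both (COL1A1, COL4A6, COL6A3, COL12A1 and COL13A1), where 10.7% and 12.7% of all genes tested in both series did so. 6 were higher in DAXX_KO and lower in ATRX_KO (COL5A1, COL5A2, COL6A1, COL6A2, COL7A1 and COL27A1), where 2.95% of all genes tested in both series did so, and 0 went the other way (2.78%). With etoposide, the 5 that were lower in both bore the same names (12.8% of all genes were lower in both), and 0 were higher in both (12.4%). COL17A1 joined the 6 with opposite changes (3.23% of all genes), and 0 went the other way (2.45%). The knockout comparisons of the 2 series share no libraries. Each of these changes is against the WT of its own series. Of the 6 with opposite changes in control cells, only COL5A1 and COL27A1 lay beyond the WT libraries of both series in both knockouts. With etoposide only COL5A1 and COL6A1 of those with opposite changes did so. COL1A2 and the 5 that were lower in both did so in control cells.

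Type I collagen, the main fibrillar collagen, is a trimer of 2 chains from COL1A1 (GRCh37 chr17:48261462-48278993, minus strand) and 1 from COL1A2 (GRCh37 chr7:94024207-94060539, plus strand), and the 2 mRNAs went opposite ways in each knockout. COL1A1 was at 408, 377 and 442 CPM in the control WT libraries of the DAXX series and at 283, 276 and 208 CPM in DAXX_KO. COL1A1 was at 483, 399.5 and 426 CPM in WT of the ATRX series and at 125, 138 and 116 CPM in ATRX_KO. All knockout libraries lay below all WT libraries, with log2 fold changes of −0.68 ± 0.10 (SE, adjusted p = 7.12e-06) and −1.79 ± 0.14 (adjusted p = 2.11e-08). COL1A2 was at 137, 122 and 129 CPM in WT and 239, 240.5 and 202 CPM in DAXX_KO. COL1A2 was at 136, 126 and 123 CPM in WT of the ATRX series and 222, 232 and 246 CPM in ATRX_KO. Here all knockout libraries lay above all WT libraries, with nearly the same fold change in each, 0.81 ± 0.082 (adjusted p = 8.81e-08) and 0.86 ± 0.10 (adjusted p = 3.77e-06). The difference between these 2 fold changes was −0.04 ± 0.14 (adjusted p = 0.857), and that for COL1A1 was 1.11 ± 0.18 (adjusted p = 2.06e-05).

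**Figure D2:**
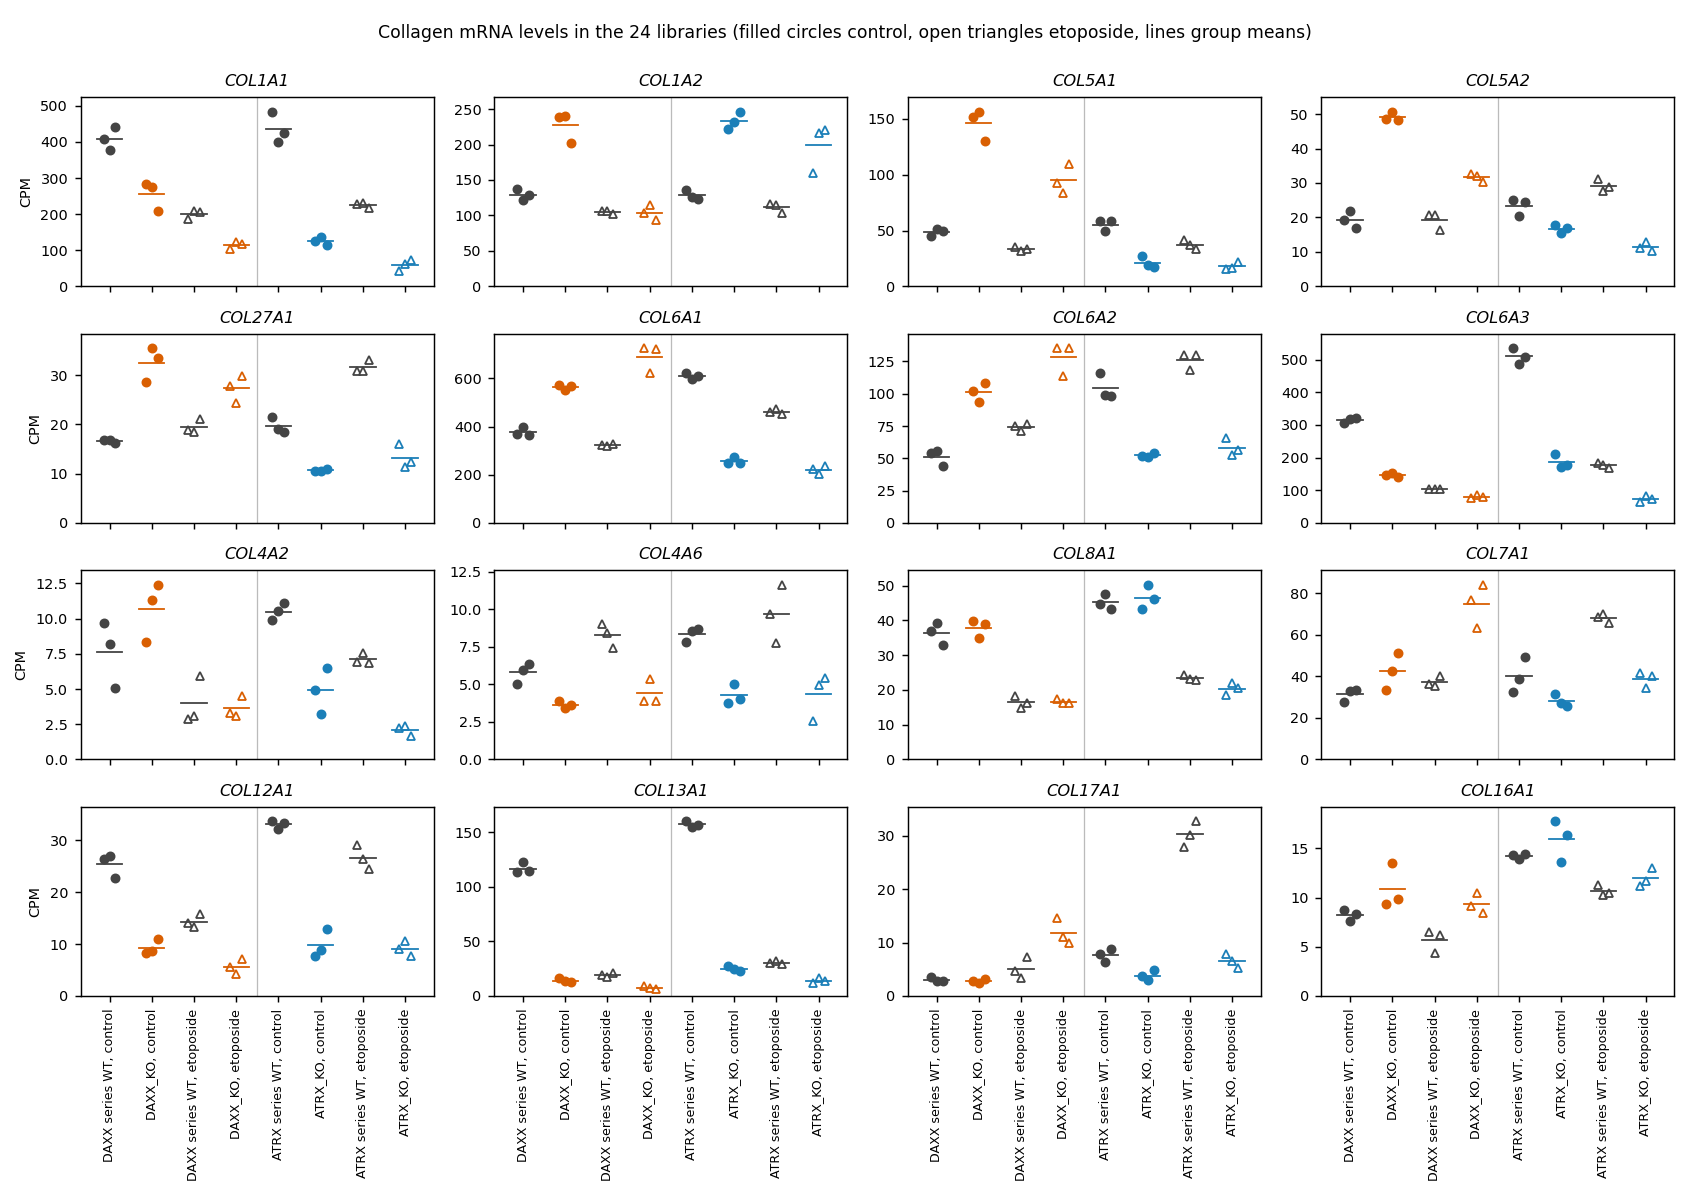
CPM of collagen mRNAs in each of the 24 libraries (points; filled for control, open for etoposide), by group on the horizontal axis, with a line at the group mean and a vertical axis from 0 in each panel. COL1A1 is lower and COL1A2 higher in both knockouts in control cells, COL5A1 is highest in DAXX_KO and lowest in ATRX_KO, and COL13A1 is below 30 CPM in every knockout library.

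Counted within a library, COL1A1 gave about 3 fragments for each of COL1A2 in control WT and at most 1.27 in every knockout library. These ratios compare counts of 3′ ends, not divided by length, and they use the same 2 genes in every library. In control cells of the DAXX series the ratio averaged 3.17 ± 0.226 for WT (SD, n = 3) against 1.12 ± 0.0792 for DAXX_KO, and in those of the ATRX series 3.39 ± 0.199 for WT against 0.542 ± 0.0649 for ATRX_KO. With etoposide the same pairs averaged 1.90 ± 0.145 against 1.11 ± 0.137, and 2.02 ± 0.0636 against 0.29 ± 0.0337. In WT and in ATRX_KO the ratio was lower with etoposide in all 3 libraries, and in DAXX_KO its values with and without etoposide overlapped.

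**Figure D3:**
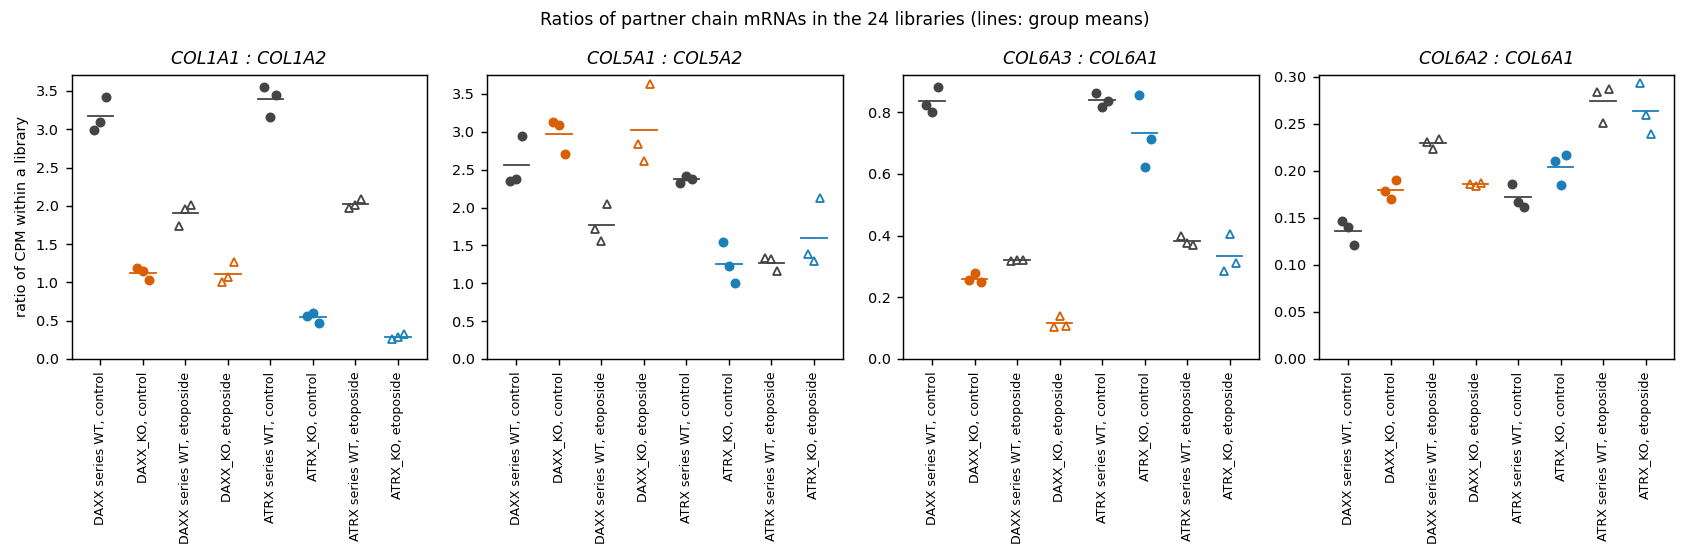
Ratio of the CPM of partner collagen chains within each library (points) by group, with a line at the group mean and a vertical axis from 0, for COL1A1 to COL1A2, COL5A1 to COL5A2, COL6A3 to COL6A1 and COL6A2 to COL6A1. The ratio of COL1A1 to COL1A2 is above 2.9 in all control WT libraries and at most 1.18 in all control knockout libraries.

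With etoposide COL1A1 fell in all 4 lines. It was at 186, 209 and 205 CPM in DAXX-series WT, 104, 122 and 118 CPM in DAXX_KO, 228, 230.1 and 217 CPM in ATRX-series WT and 41.4, 61.3 and 71.8 CPM in ATRX_KO. Every etoposide library lay below every control library of its line, with log2 responses from −1.15 ± 0.10 in DAXX_KO (adjusted p = 9.86e-09) to −0.95 ± 0.13 in ATRX-series WT (adjusted p = 9.62e-06). COL1A2 with etoposide was at 107, 107 and 102 CPM in DAXX-series WT and 104, 114 and 93.4 CPM in DAXX_KO, so that the excess of DAXX_KO over WT seen in control cells was gone (−0.02 ± 0.085, adjusted p = 0.87). It responded by −0.30 ± 0.084 in WT against −1.13 ± 0.083 in DAXX_KO, and the interaction, the response of the knockout minus that of WT, was −0.83 ± 0.12 (adjusted p = 7.69e-05). In the ATRX series COL1A2 was at 116, 115 and 104 CPM in WT and 159, 216 and 220.3 CPM in ATRX_KO, still higher in the knockout by 0.83 ± 0.10 (adjusted p = 5.2e-06).

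COL3A1, the chain of type III collagen that accompanies type I in soft tissue, had at most 5 counts in any library and was not tested. It was at 0, 0 and 0 CPM in DAXX-series WT, 0, 0 and 0 CPM in ATRX-series WT and 0, 0 and 0 CPM in ATRX_KO in control cells, and at 0.375, 0.264 and 0.241 CPM in DAXX_KO.

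Type V collagen, a minor fibrillar collagen that starts fibrils and limits their width, changed in opposite directions in the 2 knockouts. COL5A1 (GRCh37 chr9:137533649-137736689, plus strand) was at 45.0, 51.7 and 49.5 CPM in control WT and 152, 156 and 131 CPM in DAXX_KO. In WT of the ATRX series it was at 58.4, 49.5 and 58.3 CPM and at 27.3, 19.1 and 17.1 CPM in ATRX_KO. DAXX_KO lay above and ATRX_KO below the WT libraries of either series. The log2 fold changes were 1.59 ± 0.10 (adjusted p = 1.1e-10) and −1.39 ± 0.16 (adjusted p = 1.89e-06), and they differed by 2.98 ± 0.19 (adjusted p = 3.89e-12). Its partner COL5A2 (GRCh37 chr2:189896624-190090038, minus strand) was at 19.1, 21.8 and 16.8 CPM in WT and 48.5, 50.7 and 48.3 CPM in DAXX_KO, an increase of 1.35 ± 0.11 (adjusted p = 2.65e-09). In the ATRX series COL5A2 was at 25.1, 20.5 and 24.5 CPM in WT and 17.7, 15.6 and 17.1 CPM in ATRX_KO, a smaller change of −0.48 ± 0.12 (adjusted p = 0.00314). The ATRX_KO libraries of COL5A2 lay below their own WT but overlapped the WT of the DAXX series.

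The ratio of COL5A1 to COL5A2 within a library averaged 2.56 ± 0.334 for WT of the DAXX series (SD, n = 3) against 2.97 ± 0.234 for DAXX_KO, with overlapping libraries. It averaged 2.37 ± 0.0473 for WT of the ATRX series against 1.25 ± 0.271 for ATRX_KO, which was lower in all 3 libraries. With etoposide COL5A2 was at 20.6, 20.6 and 16.3 CPM in DAXX-series WT, 32.5, 31.9 and 30.4 CPM in DAXX_KO, 31.1, 27.8 and 28.8 CPM in ATRX-series WT and 11.2, 12.9 and 10.4 CPM in ATRX_KO. Both knockouts lay below their own control libraries, while WT overlapped its control libraries in the DAXX series and lay above them in the ATRX series. The interaction was −0.63 ± 0.15 in the DAXX series (adjusted p = 0.00811) and −0.87 ± 0.17 in the ATRX series (adjusted p = 0.00213). COL5A1 with etoposide was at 35.3, 32.0 and 33.4 CPM in DAXX-series WT against 92.2, 83.5 and 110.0 CPM in DAXX_KO, and at 41.3, 36.9 and 33.3 CPM in ATRX-series WT against 15.5, 16.7 and 22.2 CPM in ATRX_KO, so it kept its opposite changes. COL5A3, the third type V chain, had at most 13 counts in any library and was not tested.

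COL27A1 (GRCh37 chr9:116917817-117074791, plus strand), a fibrillar collagen of cartilage with a shortened helix, changed like COL5A1 (it was chosen for values in every library after they had been seen). In control cells it was at 16.8, 16.8 and 16.2 CPM in WT and 28.6, 35.5 and 33.6 CPM in DAXX_KO, 0.97 ± 0.11 (adjusted p = 4.88e-07). It was at 21.5, 19.2 and 18.5 CPM in ATRX-series WT and 10.5, 10.5 and 11.0 CPM in ATRX_KO, −0.89 ± 0.13 (adjusted p = 2.7e-05). DAXX_KO lay above and ATRX_KO below the WT libraries of both series, and the difference between the knockout effects was 1.86 ± 0.16 (adjusted p = 1.3e-09). With etoposide its difference in DAXX_KO was 0.49 ± 0.11 (adjusted p = 0.0011), but the DAXX_KO libraries, at 27.8, 24.4 and 29.9 CPM, then lay below the WT libraries of the ATRX series, at 30.8, 30.9 and 33.0 CPM.

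Type VI collagen joins cells to the matrix through beaded microfilaments built from COL6A1, COL6A2 and COL6A3 chains in equal parts. In DAXX_KO the COL6A1 and COL6A2 mRNAs rose and COL6A3 fell, whereas in ATRX_KO all 3 fell. COL6A1 (GRCh37 chr21:47401684-47424964, plus strand) was at 369, 399 and 365 CPM in control WT and 572, 551 and 567 CPM in DAXX_KO, 0.58 ± 0.065 (adjusted p = 3.46e-07). COL6A2 (GRCh37 chr21:47518026-47552762, plus strand), its neighbour on chromosome 21, was at 54.0, 55.7 and 44.1 CPM in WT and 102, 93.4 and 108 CPM in DAXX_KO, 0.98 ± 0.094 (adjusted p = 4.46e-08). COL6A3 (GRCh37 chr2:238232646-238322971, minus strand) was at 304, 319 and 322 CPM in WT and 146, 153 and 141 CPM in DAXX_KO, −1.11 ± 0.065 (adjusted p = 4.35e-11). For each of the 3 genes the DAXX_KO libraries lay apart from their own WT libraries.

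In the ATRX series COL6A1 was at 621, 595 and 609 CPM in WT and 247, 276 and 251 CPM in ATRX_KO, −1.24 ± 0.073 (adjusted p = 8.64e-10). COL6A2 was at 116, 99.1 and 98.6 CPM in WT and 52.0, 50.9 and 54.3 CPM in ATRX_KO, −1.0 ± 0.092 (adjusted p = 1.95e-07). COL6A3 was at 534, 486 and 509 CPM in WT and 212, 172 and 179 CPM in ATRX_KO, −1.44 ± 0.10 (adjusted p = 3.41e-09). All 3 chains were lower in every ATRX_KO library than in every WT library of that series. The WT levels themselves differed between the series, higher in the ATRX series by 0.65 ± 0.067 for COL6A1, 0.98 ± 0.10 for COL6A2 and 0.65 ± 0.079 for COL6A3 (adjusted p = 6.59e-07, 2.7e-07 and 6.07e-06). Set against the WT of the other series, the COL6A1 level of DAXX_KO lay below WT, and the COL6A2 levels of either knockout overlapped WT. For COL6A3 both knockouts lay below the WT of both series.

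The ratio of COL6A3 to COL6A1 within a library averaged 0.836 ± 0.0422 in control WT (SD, n = 3) against 0.26 ± 0.0152 in DAXX_KO, with the groups apart, while in the ATRX series it averaged 0.838 ± 0.0223 for WT against 0.731 ± 0.118 for ATRX_KO, with the groups overlapping. These WT ratios hardly differed between the series although the WT levels did. With etoposide the same pairs averaged 0.32 ± 0.0024 against 0.117 ± 0.0186, and 0.382 ± 0.0152 against 0.334 ± 0.0637. Etoposide lowered COL6A3 in all 4 lines, to 103, 103 and 105 CPM in DAXX-series WT, 75.2, 85.7 and 78.4 CPM in DAXX_KO, 183, 178 and 167 CPM in ATRX-series WT and 63.7, 82.1 and 73.6 CPM in ATRX_KO. Its log2 responses were −1.60 ± 0.066, −0.88 ± 0.067, −1.53 ± 0.10 and −1.36 ± 0.10 in that order (largest adjusted p = 6.52e-09). The response was smaller in DAXX_KO than in its WT, with an interaction of 0.73 ± 0.093 (adjusted p = 2.96e-05).

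COL6A1 moved far less with etoposide, to 325, 320.3 and 327 CPM in DAXX-series WT, 725, 620.4 and 724 CPM in DAXX_KO, 458, 473 and 452 CPM in ATRX-series WT and 224, 202 and 236 CPM in ATRX_KO. It fell in both WT groups and in ATRX_KO and rose in DAXX_KO (0.29 ± 0.064, adjusted p = 0.000692), with an interaction of 0.51 ± 0.091 (adjusted p = 0.000798) in the DAXX series. The fall in DAXX-series WT (−0.22) was not called without WT control replicate 2, at −0.17, and that in ATRX_KO (−0.22) was not called without etoposide replicate 2, at −0.17, or without control replicate 2. With at least 10 counts in every library neither fall was called (−0.15 and −0.16), and that in ATRX_KO was lost also with library totals alone (−0.15) and in a model of the compared groups only (−0.21). COL6A2 was at 75.2, 71.4 and 76.4 CPM in DAXX-series WT, 135, 114 and 135 CPM in DAXX_KO, 130.2, 119 and 129.6 CPM in ATRX-series WT and 65.8, 52.5 and 56.5 CPM in ATRX_KO. The further type VI chains COL6A5 and COL6A6 never exceeded 3 counts.

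Type IV collagen genes lie in head-to-head pairs that start from a shared promoter region. The starts of COL4A1 and COL4A2 lie 127 bases apart and those of COL4A5 and COL4A6 380 bases apart in the RefSeq annotation of GRCh38.p14. The windows below run from 250 bases before to 50 after a start. That of COL4A2 is shown because it holds the starts of both partners. Those of COL4A5 and COL4A6 are shown because the 2 genes were called in opposite directions in DAXX_KO. The windows come from a table of RefSeq promoters that matched 32 of the 44 members, and are printed on the strand of the named gene. Capitals mark motifs found on either strand. A GC box is spelled GGGCGG here. The box with the letters CCAAT is named by them. A TATA box is spelled TATAAA.
COL4A2, chr13:110307034-110307333, plus strand: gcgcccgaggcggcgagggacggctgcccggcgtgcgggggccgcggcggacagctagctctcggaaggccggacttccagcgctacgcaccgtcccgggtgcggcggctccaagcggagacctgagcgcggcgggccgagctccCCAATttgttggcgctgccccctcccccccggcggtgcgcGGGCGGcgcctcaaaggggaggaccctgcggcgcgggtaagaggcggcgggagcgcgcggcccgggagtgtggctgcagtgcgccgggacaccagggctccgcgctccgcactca
COL4A5, chrX:108439588-108439887, plus strand: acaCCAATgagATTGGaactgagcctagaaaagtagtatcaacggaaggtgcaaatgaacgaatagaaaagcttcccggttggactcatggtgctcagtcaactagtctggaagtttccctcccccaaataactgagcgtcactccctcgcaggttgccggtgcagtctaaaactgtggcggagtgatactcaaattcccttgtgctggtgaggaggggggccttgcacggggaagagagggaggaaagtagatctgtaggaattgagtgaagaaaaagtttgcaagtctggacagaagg
COL4A6, chrX:108439409-108439708, minus strand: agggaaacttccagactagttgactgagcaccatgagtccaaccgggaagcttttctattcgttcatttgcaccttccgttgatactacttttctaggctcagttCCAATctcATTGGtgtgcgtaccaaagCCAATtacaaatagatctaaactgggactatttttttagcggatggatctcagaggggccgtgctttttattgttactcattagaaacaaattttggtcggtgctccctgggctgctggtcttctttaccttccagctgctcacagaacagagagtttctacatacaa
The COL4A2 window also holds the start of COL4A1 on the other strand, 1 GC box and 1 CCAAT box. The COL4A5 window holds 2 CCAAT boxes and the COL4A6 window 3, and the 2 windows overlap, but neither holds the start of the other gene. COL4A6 has a further start at chrX:108438422, whose window, with 1 GC box and 0 CCAAT boxes, is not shown. Counts of 3′ ends do not tell the starts of COL4A6 apart.

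COL4A1 and COL4A2, the common chains of basement membranes, were both lower in ATRX_KO. COL4A1 was sparse, with counts of 9, 4 and 8 in control WT against 0, 0 and 0 in DAXX_KO, and of 7, 7 and 16 in ATRX-series WT against 0, 0 and 0 in ATRX_KO. It was thus at 0 in all 6 control knockout libraries, and called lower in ATRX_KO (adjusted p = 0.000221) but not tested in the DAXX series. COL4A2 (GRCh37 chr13:110958159-111165556, plus strand) was at 9.71, 8.17 and 5.04 CPM in WT and 8.37, 11.3 and 12.4 CPM in DAXX_KO, which overlapped (0.47 ± 0.25, adjusted p = 0.122). COL4A2 was at 9.88, 10.5 and 11.1 CPM in ATRX-series WT and 4.96, 3.26 and 6.51 CPM in ATRX_KO, lower by −1.09 ± 0.21 (adjusted p = 0.000426). Scaled by library totals alone, the value in DAXX_KO was 0.66 and called (adjusted p = 0.0354). With etoposide COL4A2 was at 2.89, 3.10 and 5.94 CPM in DAXX-series WT, 3.29, 3.11 and 4.48 CPM in DAXX_KO, 6.94, 7.55 and 6.83 CPM in ATRX-series WT and 2.23, 2.38 and 1.66 CPM in ATRX_KO. It fell in all 4 lines, by −0.97 ± 0.28, −1.56 ± 0.28, −0.56 ± 0.20 and −1.23 ± 0.24 on the log2 scale (largest adjusted p = 0.0239). The calls in the WT groups were lost without DAXX-series WT control replicate 1 (−0.74), and without control replicate 3, etoposide replicate 1 or etoposide replicate 3 of ATRX-series WT (control replicate 3: −0.53). COL4A1 counts with etoposide were 2, 6 and 4 in DAXX-series WT, 4, 2 and 0 in DAXX_KO, 12, 18 and 15 in ATRX-series WT and 3, 6 and 5 in ATRX_KO.

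COL4A5 and COL4A6, the chains of kidney and smooth muscle basement membranes, went opposite ways in DAXX_KO. COL4A6 (GRCh37 chrX:107398837-107682727, minus strand) was at 5.05, 5.99 and 6.37 CPM in control WT and 3.87, 3.43 and 3.61 CPM in DAXX_KO, −0.67 ± 0.21 (adjusted p = 0.0118). COL4A6 was at 7.85, 8.57 and 8.72 CPM in ATRX-series WT and 3.74, 5.02 and 4.05 CPM in ATRX_KO, −0.97 ± 0.23 (adjusted p = 0.00293). All control knockout libraries lay below all control WT libraries of either series, although with scaling by library totals alone the DAXX_KO value was −0.48 and not called (adjusted p = 0.0609). COL4A5 was at 4.96, 5.07 and 4.80 CPM in WT and 7.75, 7.26 and 6.86 CPM in DAXX_KO, higher by 0.56 ± 0.19 (adjusted p = 0.0198), and in the ATRX series it was at 7.70, 7.04 and 6.95 CPM in WT and 7.39, 5.86 and 6.36 CPM in ATRX_KO (−0.15 ± 0.18, adjusted p = 0.551). With etoposide COL4A6 was at 9.04, 8.45 and 7.43 CPM in DAXX-series WT, 3.90, 5.39 and 3.92 CPM in DAXX_KO, 9.71, 7.74 and 11.6 CPM in ATRX-series WT and 2.58, 4.99 and 5.43 CPM in ATRX_KO, again with each knockout below its WT. The kidney chain COL4A3 had counts of 13, 14 and 11 in ATRX_KO with etoposide and at most 6 in every other group, and COL4A4 was not tested.

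The transmembrane collagen COL13A1 (GRCh37 chr10:71561636-71724031, plus strand) is found at cell adhesion sites and the neuromuscular junction. In control cells it had the most negative fold change in each knockout, among the members with more than 3 counts in some library of every group. It was at 114, 123 and 114 CPM in control WT and 16.2, 13.6 and 12.8 CPM in DAXX_KO, −3.04 ± 0.11 (adjusted p = 4.8e-14). WT of the ATRX series held 160.2, 155 and 157 CPM and ATRX_KO 27.2, 24.8 and 23.1 CPM, −2.65 ± 0.093 (adjusted p = 1.36e-12). The knockout libraries lay far below the WT libraries of both series. Etoposide also lowered it, to 19.2, 17.7 and 20.8 CPM in DAXX-series WT, 8.89, 7.04 and 6.05 CPM in DAXX_KO, 30.5, 31.9 and 29.1 CPM in ATRX-series WT and 12.3, 16.1 and 14.2 CPM in ATRX_KO. The WT responses were −2.60 ± 0.10 and −2.37 ± 0.092, and those of the knockouts were −0.96 ± 0.14 and −0.81 ± 0.10, all 4 called (largest adjusted p = 1.18e-05). The response was smaller in each knockout, with interactions of 1.64 ± 0.18 in the DAXX series (adjusted p = 5.8e-06) and 1.55 ± 0.14 in the ATRX series (adjusted p = 2.84e-06). With etoposide each knockout still lay below its WT, by −1.40 ± 0.14 and −1.10 ± 0.10 on the log2 scale.

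The promoter windows of COL13A1 and COL5A1 are shown as those of a member that fell in both knockouts and of a member that rose in DAXX_KO and fell in ATRX_KO, with the same capitals as above.
COL13A1, chr10:69801656-69801955, plus strand: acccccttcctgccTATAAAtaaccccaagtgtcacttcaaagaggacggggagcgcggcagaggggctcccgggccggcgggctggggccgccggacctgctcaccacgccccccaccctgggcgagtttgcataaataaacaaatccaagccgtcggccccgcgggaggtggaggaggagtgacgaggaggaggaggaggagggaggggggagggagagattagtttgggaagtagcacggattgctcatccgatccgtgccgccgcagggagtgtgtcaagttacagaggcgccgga
COL5A1, chr9:134641553-134641852, plus strand: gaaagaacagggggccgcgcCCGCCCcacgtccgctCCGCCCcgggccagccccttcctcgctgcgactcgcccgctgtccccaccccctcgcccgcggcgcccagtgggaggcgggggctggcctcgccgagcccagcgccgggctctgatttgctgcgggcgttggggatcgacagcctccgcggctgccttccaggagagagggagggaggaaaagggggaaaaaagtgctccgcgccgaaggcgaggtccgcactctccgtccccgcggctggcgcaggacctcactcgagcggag
The COL13A1 window holds 1 TATA box and the COL5A1 window 2 GC boxes. Over the 44 windows of the members a GC box was found in 54.5% (45.0% of 35116 windows of all genes), a CCAAT box in 31.8% (34.6%) and a TATA box in 18.2% (11.5%). Such matches describe letters in a window and not bound factors.

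COL17A1 (GRCh37 chr10:105791044-105845638, minus strand), the transmembrane collagen that anchors basal skin cells, responded to etoposide more in DAXX_KO and less in ATRX_KO than in the WT of its series. In control cells it was at 3.47, 2.88 and 2.76 CPM in DAXX-series WT, 2.75, 2.51 and 3.13 CPM in DAXX_KO, 7.85, 6.45 and 8.81 CPM in ATRX-series WT and 3.74, 2.93 and 4.85 CPM in ATRX_KO. With etoposide it was at 4.64, 3.45 and 7.29 CPM in DAXX-series WT, 14.6, 11.0 and 9.97 CPM in DAXX_KO, 27.8, 30.2 and 32.7 CPM in ATRX-series WT and 7.83, 6.50 and 5.20 CPM in ATRX_KO. It was called higher with etoposide in all 4 lines, although 1 etoposide library of DAXX-series WT lay within its control range, and the WT of the ATRX series stood highest, above the WT of the DAXX series by 2.52 ± 0.21 (adjusted p = 1e-08). The responses were 0.73 ± 0.27 in DAXX-series WT, 2.07 ± 0.25 in DAXX_KO, 1.97 ± 0.17 in ATRX-series WT and 0.75 ± 0.20 in ATRX_KO. The interaction was 1.34 ± 0.38 in the DAXX series (adjusted p = 0.0212) and −1.22 ± 0.27 in the ATRX series (adjusted p = 0.00547). The interaction in the DAXX series kept values of 1.12 to 1.67 when libraries were left out, and was not called without DAXX_KO control replicate 2, DAXX_KO etoposide replicate 1, WT control replicate 1 or WT etoposide replicate 2. The response of DAXX-series WT was 0.40 without etoposide replicate 3, and was not called then or without control replicate 2 or 3. With etoposide the knockout effects, 1.21 ± 0.23 and −2.22 ± 0.17, differed by 3.42 ± 0.29 (adjusted p = 9.51e-10), but each knockout lay beyond only its own WT in the called direction. ATRX_KO overlapped the WT of the DAXX series and DAXX_KO lay below the WT of the ATRX series.

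COL12A1 (GRCh37 chr6:75794042-75915983, minus strand), a fibril-associated collagen of tendon and other loaded tissue, fell in both knockouts. It was at 26.4, 26.9 and 22.8 CPM in control WT and 8.37, 8.71 and 10.9 CPM in DAXX_KO, −1.44 ± 0.15 (adjusted p = 1.98e-07). WT of the ATRX series held 33.7, 32.3 and 33.3 CPM and ATRX_KO 7.74, 8.78 and 12.9 CPM, −1.75 ± 0.16 (adjusted p = 1.25e-07). All knockout libraries lay below the WT libraries of both series, and the difference between the 2 effects, 0.31 ± 0.23 (adjusted p = 0.319), was not called. Without ATRX_KO control replicate 3 it was 0.56 and called (adjusted p = 0.0457). With etoposide it was at 14.1, 13.2 and 15.8 CPM in DAXX-series WT, 5.60, 4.25 and 7.05 CPM in DAXX_KO, 29.1, 26.4 and 24.4 CPM in ATRX-series WT and 9.08, 10.6 and 7.69 CPM in ATRX_KO. It fell with etoposide in both lines of the DAXX series (−0.83 ± 0.15 and −0.74 ± 0.18), and was not called in those of the ATRX series (−0.31 ± 0.14 and −0.11 ± 0.17). In ATRX-series WT the etoposide libraries lay below the control libraries, and the response was called under 3 other settings and in 2 of the fits that left out a library (adjusted p from 0.00498 to 0.0465).

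The cartilage chains COL9A2 and COL9A3 and the fibril-associated COL14A1 were nearly silent in control WT cells and are given as counts. COL9A2 had 1, 1 and 2 counts in control WT of the DAXX series against 15, 17 and 21 in DAXX_KO, and 1, 3 and 2 in that of the ATRX series against 0, 3 and 10 in ATRX_KO. With etoposide it had 12, 11 and 5 counts in DAXX-series WT, 23, 29 and 25 in DAXX_KO, 17, 9 and 4 in ATRX-series WT and 4, 11 and 13 in ATRX_KO. DAXX_KO lay above its WT in both treatments (adjusted p = 4.66e-06 and 0.00513). COL9A3 had 0, 1 and 0 counts in control WT of the DAXX series against 5, 5 and 8 in DAXX_KO, and 0, 0 and 0 in that of the ATRX series against 0, 0 and 3 in ATRX_KO. With etoposide it had 12, 8 and 8 counts in DAXX-series WT, 19, 19 and 17 in DAXX_KO, 26, 22 and 14 in ATRX-series WT and 8, 18 and 8 in ATRX_KO. Every etoposide library of COL9A3 was above every control library of its line, and the 4 responses were called (largest adjusted p = 0.00788). The end of COL9A3 overlaps TCFL5 on the other strand, and since no strand setting of the counting is stated, reads of the 2 genes cannot be told apart. COL14A1 had 2, 1 and 0 counts in control WT and 31, 31 and 49 in DAXX_KO, and 5, 12 and 2 in WT and 42, 34 and 25 in DAXX_KO with etoposide (adjusted p = 5.85e-07 and 0.000317 for DAXX_KO against WT). It stayed at 13 counts or fewer in every library of the ATRX series. For these 3 genes no fold against WT is given, since control WT of the DAXX series had at most 3 counts in every library.

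COL7A1 (GRCh37 chr3:48601506-48632762, minus strand), the anchoring fibril collagen of skin, was also chosen after its values had been seen. In control cells it was at 27.6, 33.2 and 33.3 CPM in DAXX-series WT, 33.6, 42.5 and 51.0 CPM in DAXX_KO, 32.4, 38.6 and 49.5 CPM in ATRX-series WT and 31.6, 27.3 and 25.7 CPM in ATRX_KO. The fold changes were 0.44 ± 0.13 (adjusted p = 0.00942) and −0.51 ± 0.13 (adjusted p = 0.00452), and the former was not called without DAXX_KO replicate 3 (0.29) or WT replicate 1. With etoposide it was at 36.1, 35.4 and 40.1 CPM in DAXX-series WT, 76.8, 63.5 and 84.1 CPM in DAXX_KO, 68.5, 70.0 and 65.7 CPM in ATRX-series WT and 41.4, 34.5 and 40.3 CPM in ATRX_KO. Both knockouts then lay apart from their own WT (1.01 ± 0.13 and −0.82 ± 0.13), and both overlapped the WT of the other series.

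COL8A1 (GRCh37 chr3:99357319-99518070, plus strand), the short-chain collagen of vessel walls and the cornea, shows a member that etoposide moved and the knockouts hardly did (chosen after its values had been seen). In control cells it was at 37.0, 39.1 and 33.0 CPM in DAXX-series WT, 39.7, 35.0 and 39.0 CPM in DAXX_KO, 44.9, 47.5 and 43.4 CPM in ATRX-series WT and 43.2, 50.3 and 46.3 CPM in ATRX_KO. With etoposide it was at 18.3, 14.9 and 16.3 CPM in DAXX-series WT, 17.3, 16.3 and 16.1 CPM in DAXX_KO, 24.2, 23.2 and 22.9 CPM in ATRX-series WT and 18.4, 22.0 and 20.7 CPM in ATRX_KO. All etoposide libraries lay below all control libraries, with responses of −1.14 ± 0.11, −1.20 ± 0.11, −0.95 ± 0.093 and −1.19 ± 0.093 (largest adjusted p = 1.44e-07). The knockout effects were 0.06 ± 0.10 and 0.04 ± 0.088 in control cells (adjusted p = 0.643 and 0.736). That of DAXX_KO was 0.24 and called (adjusted p = 0.0440) with scaling by library totals alone. With etoposide neither knockout effect was called, although all ATRX_KO libraries lay below all WT libraries of that series.

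Across the members, etoposide changed collagen mRNAs in both directions. In DAXX-series WT 7 of 23 members were higher and 11 lower with etoposide, where 60.2% of all genes were called (29.6% higher and 30.6% lower), and in DAXX_KO 6 were higher and 9 lower (54.5% called, 26.8% and 27.8%). In ATRX-series WT 9 of 24 were higher and 8 lower (61.5% called, 31.7% and 29.8%), and in ATRX_KO 5 were higher and 8 lower (49.5% called, 24.3% and 25.2%). COL1A1, COL4A2, COL6A3, COL8A1 and COL13A1 fell in all 4 lines, and COL9A3 and COL17A1 rose in all 4, that is 5 and 2 of 21 members tested in both series, where 18.6% of all genes fell in all 4 and 14.8% rose in all 4. The response differed between DAXX_KO and its WT for 11 of 23 members (5 higher and 6 lower, with 14.2% of all genes called, 8.38% higher and 5.79% lower), a count of 7 when only genes with at least 10 counts in every library were tested, and between ATRX_KO and its WT for 4 of 24 (2 higher and 2 lower, with 16% called, 8.36% higher and 7.64% lower). The response, knockout and interaction values of a series share libraries and are not independent of each other.

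**Figure D4:**
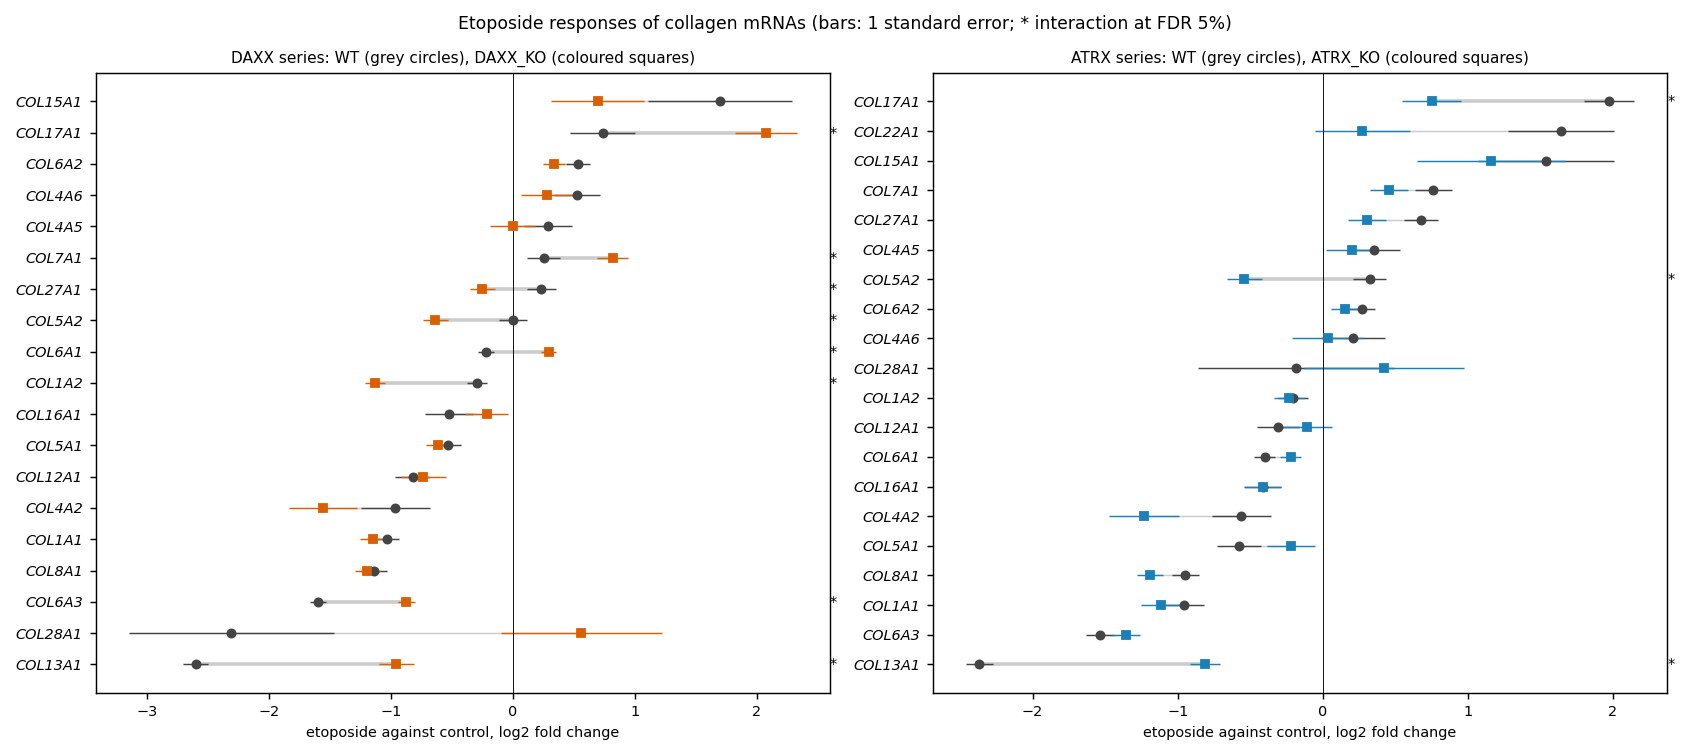
Log2 fold change with etoposide against control (horizontal axis) of collagen mRNAs (vertical axis), in WT (grey circles) and in the knockout (coloured squares), in the DAXX series (left) and the ATRX series (right), with bars of 1 standard error from the model, a line joining both values and a star where the interaction passed an FDR of 5%. For COL13A1 the knockout square lies to the right of the WT circle in both series, for COL1A2 it lies to the left in the DAXX series, and for COL17A1 it lies to the right in the DAXX series and to the left in the ATRX series.

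The knockout effect itself was compared between the series in 1 model of all 24 libraries. The 26 members tested there included COL18A1, which was tested in neither series alone, so they are not the 26 tested in at least 1 series. In control cells it was higher in the DAXX series for 11 of 26 members, lower for 1 and not called for 14, where 34.1% of all genes were called (17% higher and 17.2% lower), and the median member differed by 0.99 against −0.0036 for all genes. With etoposide 12 were higher, 1 lower and 13 not called (34.5% called, 17.7% higher and 16.8% lower), with a median of 1.32. In control cells the member that was lower was COL13A1, at −0.38 ± 0.14 (adjusted p = 0.0399), a call that was lost when any of 6 libraries was left out (values from −0.50 to −0.31 over all removals), with library totals alone (−0.26, adjusted p = 0.18) and with a replicate block (−0.39, adjusted p = 0.0528). With etoposide it was COL1A2, at −0.87 ± 0.14 (adjusted p = 2.32e-05).

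The WT libraries of the 2 series were not alike. A comparison added after the values had been seen found 8 of 26 members higher in the WT of the ATRX series than in that of the DAXX series in control cells and 0 lower, where 13.2% of all genes were called (7.22% higher and 6.01% lower), with a median member of 0.33. With etoposide it found 14 higher and 0 lower (15.9% called, 8.44% higher and 7.42% lower), with a median of 0.63. In control cells the 8 were COL6A1, COL6A2, COL6A3, COL8A1, COL13A1, COL16A1, COL17A1 and COL22A1. Of the 18 members called in DAXX_KO in control cells, 14 had all 3 knockout libraries beyond the WT libraries of both series, and COL4A5, COL6A1, COL6A2 and COL7A1 did not (83.2% of all genes called did). Of the 16 called in ATRX_KO, 11 did, and COL4A2, COL5A2, COL6A2, COL7A1 and COL17A1 did not (76.7% of all genes called did). With etoposide 10 of 18 did in DAXX_KO (82.2% of all genes called) and 13 of 16 in ATRX_KO (76.4%). The part of the WT levels in the differences between the series was not tested.

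Genes around some members moved with them. For each member the median fold change was taken over up to 30 tested genes on each side along the chromosome. In control cells this median was −0.64 around COL1A1 in DAXX_KO and −0.44 in ATRX_KO, and −0.68 and −0.70 around COL6A1 and COL6A2 in ATRX_KO. It was 0.62 around COL5A1, 0.41 around COL7A1, 0.36 around COL27A1 and 0.33 around COL4A5 in DAXX_KO. Around COL13A1 it was −0.15 in DAXX_KO and 0.10 in ATRX_KO, and around COL12A1 0.10 and 0.12. With the median subtracted, 0 of the 18 members called in DAXX_KO and 0 of the 16 called in ATRX_KO changed sign in control cells. The sign does not give the size that was left, which in DAXX_KO was −0.04 for COL1A1 and 0.03 for COL7A1. The median was more than 50% of the member's own change for COL1A1, COL4A5 and COL7A1 in DAXX_KO and for COL6A1 and COL6A2 in ATRX_KO. With etoposide this held for COL1A1 and COL27A1 in DAXX_KO, which were left at −0.18 and 0.17, and for COL6A1 and COL6A2 in ATRX_KO. The part of these neighbours in the values of the members was not tested.

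**Figure D5:**
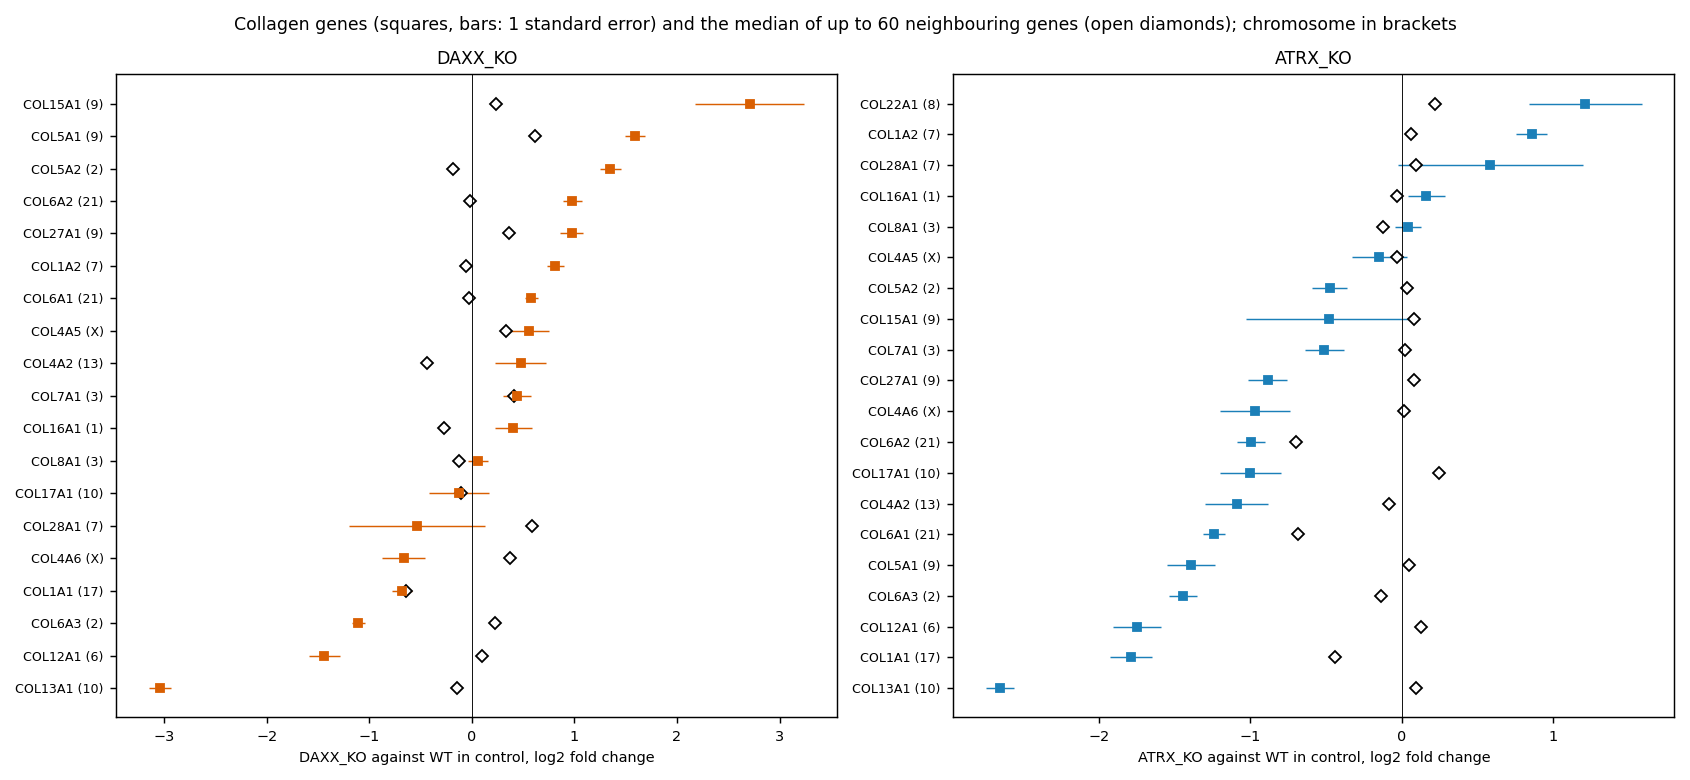
Log2 fold change (horizontal axis) of tested collagen mRNAs in control cells, for DAXX_KO (left) and ATRX_KO (right). Squares are the members, with bars of 1 standard error from the model. Open diamonds are the median log2 fold change of up to 60 neighbouring genes on the chromosome. The members and their chromosomes are on the vertical axis. Members with at most 3 counts in every library of a compared group are left out, 4 in each knockout. The diamond lies close to the square for COL1A1 and COL7A1 in DAXX_KO, on the same side of 0 as the square for COL6A1 and COL6A2 in ATRX_KO, and near 0 and far from the square for COL13A1.

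The genes that fold, export and crosslink collagen were counted from lists of known factors. Of 18 tested genes of chain folding and modification, 9 were higher and 2 lower in DAXX_KO in control cells, and 8 were higher and 1 lower in ATRX_KO. Among all genes, 53.4% were called in DAXX_KO (26.7% higher and 26.6% lower) and 41.8% in ATRX_KO (20.8% higher and 21% lower). SERPINH1, the collagen chaperone HSP47, was at 11.5 CPM in WT and 45.1 CPM in DAXX_KO on average (1.97 ± 0.11) and at 18.7 CPM in WT and 43.5 CPM in ATRX_KO (1.21 ± 0.13). P3H3, of the prolyl 3-hydroxylase family, changed by 1.42 ± 0.13 and 1.35 ± 0.16, and the prolyl isomerase FKBP14 by 0.74 ± 0.084 and 0.51 ± 0.091. The 3 genes rose in both knockouts, also in ATRX_KO, where most of the called members fell.

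Of 9 tested genes of export and propeptide removal, 5 were higher and 2 lower in DAXX_KO and 3 were higher and 3 lower in ATRX_KO. Of all genes tested, 53.4% were called in DAXX_KO (26.7% higher and 26.6% lower) and 41.8% in ATRX_KO (20.8% higher and 21% lower). The coat protein SEC24D changed by 0.56 ± 0.11 in DAXX_KO and 0.59 ± 0.12 in ATRX_KO, the propeptide protease BMP1 by 1.12 ± 0.11 and −0.35 ± 0.12, and the cargo receptor MIA3 by −0.67 ± 0.10 and −0.27 ± 0.086. Of 4 tested lysyl oxidases, which crosslink collagen, 3 were higher and 1 lower in DAXX_KO and 2 were higher and 2 lower in ATRX_KO, beside the same shares of all genes. LOXL3 changed by 1.47 ± 0.21 and 1.08 ± 0.15, LOX by −1.64 ± 0.15 and −0.97 ± 0.16, and LOXL2 by 0.50 ± 0.067 and −0.49 ± 0.12. BMP1 and LOXL2, like COL5A1, were higher in DAXX_KO and lower in ATRX_KO.

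Of 10 receptors and uptake genes, 5 were higher and 3 lower in DAXX_KO and 0 were higher and 3 lower in ATRX_KO. Beside them, 53.4% of all genes were called in DAXX_KO (26.7% higher and 26.6% lower) and 41.8% in ATRX_KO (20.8% higher and 21% lower). The uptake receptor MRC2 fell in both (−1.33 ± 0.12 and −1.17 ± 0.088), as did the collagen-binding integrin chain ITGA1 (−0.47 ± 0.10 and −0.47 ± 0.092), and its partner ITGB1 changed by 0.26 ± 0.053 and −0.25 ± 0.069. Of 2 tested small leucine-rich proteoglycans, which bind fibrils, LUM was called higher in both. As group means it went from 0.118 CPM in WT to 9.94 CPM in DAXX_KO. In the ATRX series it went from 0 CPM in WT to 0.772 CPM in ATRX_KO, so WT was at or near 0. LUM passed the filter only through knockout libraries, where it was high, so its calls add no support beyond these levels.

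The remaining members were measured near the limit of detection or changed less. COL16A1, a fibril-associated collagen, was at 8.72, 7.60 and 8.29 CPM in control WT and 9.37, 13.5 and 9.87 CPM in DAXX_KO and was not called in control cells of either series. The basement membrane zone collagen COL15A1 had 7, 0 and 3 counts in control WT and 23, 21 and 15 in DAXX_KO, with a fold change of 2.71 ± 0.53 (adjusted p = 0.000251). COL21A1, a fibril-associated collagen, had 0, 0 and 0 counts in control WT and 3, 6 and 2 in DAXX_KO, and 0, 2 and 0 in WT and 25, 23 and 41 in DAXX_KO with etoposide. COL22A1, of tissue junctions, had 10, 6 and 11 counts in control WT and 28, 19 and 15 in ATRX_KO (1.21 ± 0.37, adjusted p = 0.0146). COL28A1 was not called in control cells of either series. With etoposide COL16A1 and COL28A1 were higher in DAXX_KO, by 0.71 ± 0.19 and 2.34 ± 0.84, although COL28A1, with 0, 1 and 4 counts in WT and 15, 11 and 4 in DAXX_KO, overlapped. In all, 26 members were tested in at least 1 series and 18 in neither, and 6 of these (COL2A1, COL6A5, COL6A6, COL9A1, COL19A1 and COL23A1) never had more than 3 counts. The 12 others tested in neither series alone were COL3A1, COL4A4, COL5A3, COL8A2, COL10A1, COL11A1, COL11A2, COL18A1, COL20A1, COL24A1, COL25A1 and COL26A1. Testing required enough counts in at least 3 libraries, so the tested members include some that passed through a single group. Among the members called in DAXX_KO in control cells, COL9A2, COL9A3, COL14A1 and COL21A1 had at most 3 counts in every library of WT, and in ATRX_KO COL4A1 had 0 in every library of the knockout.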

How the data were processed

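RNA-seq of U87-T, DAXX_KO and ATRX_KO cells was analysed in 24 libraries, each assigned to a group by its title. The authors aligned single-end reads of 75 bases with STAR, and deposited estimated counts from RSEM as whole numbers, on hg19. No sign of normalization was found, and 0 columns were left unassigned. The RSEM version and a strand setting are not given here, since the sources differ on the former and none used here states the latter.

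Testing was done in edgeR 4.0.16 (R 4.3.3), scaled by TMM with factors of 0.939 to 1.10, on genes passing filterByExpr (counts of at least 10, totals of at least 15). Quasi-likelihood models held 4 groups within a series or 8 groups over both, with dispersions equal to a coefficient of variation of 0.0825 (DAXX), 0.106 (ATRX) and 0.0960 (both). The Benjamini-Hochberg adjustment ran over all genes tested, with calls at an FDR of 0.05. Symbols and GRCh37 coordinates were taken from GENCODE release 44 lifted to build 37, where 55501 of 57736 IDs with 98.8% of the counts were found. Whether replicates are separate cultures is not in the labels, so p-values measure the spread between these libraries, which exceeded counting error (chi-square of 2.16 to 17.1 per degree of freedom, 24 pairs). The models were tested on simulated data.

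The members and the lists were chosen with earlier results of these data known. Every library is given for members called in the same direction in both control knockouts, with an interaction of at least 1 (log2), or with an etoposide response of at least 1 in all 4 lines, and for the chains of types I, III, V and VI and COL4A1 and COL4A2. Of each list the text names up to 3 genes called in both control knockouts, ranked by the smaller of their changes. Alternatives were DESeq2 1.42.0, RLE size factors, library totals alone, no filter, a minimum of 10 counts in all libraries, 1 model of both series, models of the compared groups only, a replicate block, subtraction of the median of 30 neighbours on each side, and removal of each library. Plots used matplotlib 3.10.9 (Python 3.11.15).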

Additional observations from a re-analysis of the deposited data

Results flagged for a closer look

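Each value is a difference of log2 fold changes from edgeR's quasi-likelihood test that passed an FDR of 5%. The etoposide response of DAXX_KO differed from that of its WT by the interaction test for COL13A1 (1.64), COL14A1 (−2.98), COL17A1 (1.34), COL1A2 (−0.83), COL27A1 (−0.48), COL5A2 (−0.63), COL6A1 (0.51), COL6A3 (0.73), COL7A1 (0.57), COL9A2 (−2.50) and COL9A3 (−3.09). COL9A2, COL9A3 and COL14A1 had at most 3 counts in every library of control WT, so the size of their values has no fixed meaning, and the calls of COL27A1, COL7A1, COL9A2 and COL9A3 were each lost under at least 1 other setting and when single libraries were left out. Those of COL14A1 and COL17A1 were lost when any of 4 libraries was left out. In the ATRX series the response of the knockout differed from that of WT for COL13A1 (1.55), COL17A1 (−1.22), COL4A1 (4.35) and COL5A2 (−0.87). COL4A1 had 0 counts in all control ATRX_KO libraries, and its call was lost with DESeq2 (3.78), with a replicate block (4.32), with no filter (4.37) and when any of 10 libraries was left out.

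The knockout effect in control cells was different in the 2 series, by the test of the difference itself (DAXX series minus ATRX series), for COL13A1 (−0.38), COL1A1 (1.11), COL27A1 (1.86), COL4A2 (1.57), COL5A1 (2.98), COL5A2 (1.83), COL6A1 (1.82), COL6A2 (1.98), COL6A3 (0.34) and COL7A1 (0.96), and also for COL4A5 (0.71) and COL15A1 (3.20). The values of COL13A1 and COL6A3 were the smallest, and their calls were lost when any of 6 and any of 4 libraries was left out, and under 2 and 1 other settings. With etoposide the knockout effect differed between the series for COL17A1 (3.42), COL1A1 (1.13), COL1A2 (−0.87), COL27A1 (1.73), COL4A2 (1.62), COL5A1 (2.52), COL5A2 (2.04), COL6A1 (2.13), COL6A2 (1.88), COL6A3 (0.87), COL7A1 (1.80) and COL9A3 (1.93), and also for COL15A1 (2.54). The call of COL9A3 was lost when any of 7 libraries was left out (adjusted p from 0.0532 to 0.0735). The WT libraries of the series differed for several of these members, with higher levels in the ATRX series, and the part of that difference in these values was not tested.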

How the results depend on the processing

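0 called values of the named members changed sign under any alternative. Of the counts of members called in either direction, only the number of interactions in the DAXX series changed by more than 1.5 times, from 11 to 7 under a minimum of 10 counts in all libraries, and to between 7 and 10 when a library was left out (7 without DAXX_KO control replicate 2, WT control replicate 1, 2 or 3, or WT etoposide replicate 1 or 2). Under that minimum COL9A2, COL9A3 and COL14A1, with fewer counts in some libraries, were no longer tested, and the interaction of COL7A1 was not called (adjusted p = 0.0505). The cause of the changes when a library was left out was not tested. Some counts in 1 direction moved by more than 1.5 times. Under a minimum of 10 counts in all libraries, 8 members rather than 13 were higher in DAXX_KO in control cells and with etoposide. The sparse members COL9A2, COL9A3, COL14A1, COL15A1, COL21A1 and COL28A1 were then not tested in the DAXX series. The members higher with etoposide in ATRX_KO, 5 in all, were 3 under that minimum or in a model of the compared groups, 8 with no filter, and 6 to 9 when a library was left out (9 without WT control replicate 3, and 8 without WT control replicate 1 or 2, control replicate 1 or 3, or etoposide replicate 3). With no filter the members higher with etoposide were 10 rather than 6 in DAXX_KO and 12 rather than 7 in DAXX-series WT. The 2 higher in ATRX_KO in control cells were 1 to 3 when a library was left out (1 without ATRX_KO control replicate 1 or WT control replicate 2), and the interactions in the DAXX series, 5 higher and 6 lower, were 3 to 5 in each direction. Libraries with the same replicate number did not deviate together, with correlations over genes from −0.492 to 0.144 in 36 comparisons, and in 21 of 72 comparisons (29.2%) a library correlated best with its own number, so the numbers were not taken as pairs. With a replicate block the interactions called were 9 (DAXX series) and 3 (ATRX series), and the knockout effects that differed between the series in control cells were 11. Scaling by library totals alone moved the median of all genes by 0.18 for DAXX_KO against WT in control cells, by −0.11 for the response of DAXX_KO and for the interaction in the DAXX series, and by 0.12 for the difference between the series in control cells. Depth limits COL4A1, COL4A3, COL9A2, COL9A3, COL14A1 and COL21A1, each with at most 3 counts in every library of some group.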

Other observations

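Noncoding genes with a collagen symbol were close to silent. The pseudogenes COL6A4P1 and COL6A4P2 had at most 2 and 4 counts in any library, and the antisense gene COL5A1-AS1 had at most 6.

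COL18A1, a vessel wall collagen whose end overlaps SLC19A1 on the other strand, was listed with 0, 0 and 0 counts in DAXX-series WT and 0, 1 and 1 in ATRX-series WT in control cells, and 9, 9 and 18 and 23, 7 and 11 with etoposide. In DAXX_KO it had 4, 3 and 0 counts in control cells and 0, 7 and 2 with etoposide, which overlapped, and in ATRX_KO 1, 0 and 0 and 3, 6 and 2. COL10A1, the collagen of hypertrophic cartilage, had 0, 0 and 0 counts in control WT and 7, 7 and 4 with etoposide in the DAXX series, and 0, 1 and 0 in control ATRX_KO and 7, 12 and 10 with etoposide. In each of these pairs except COL18A1 in DAXX_KO every etoposide library was above every control library, and neither gene was tested in a model of a single series.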
